A study of Mus musculus with 28 samples.

Results

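The genes described here are 51 mouse genes that fold, modify, move and dispose of proteins in the endoplasmic reticulum (ER), listed by name for their roles in that pathway, with earlier results of these data known. They comprise 12 chaperones and co-chaperones, 11 genes of oxidative folding and isomerisation, 9 genes of ER-associated degradation (ERAD), 15 genes of the translocon, signal peptidase and glycosylation machinery, and 4 sensors and effectors of the unfolded protein response (UPR). All 51 were found in both tables, among 35928 gene symbols in set 2 and 24849 rows in set 1. RNA-seq had been made from 28 samples of mice that can express human APOBEC3B (A3B), a cytosine deaminase, fused to turboGFP. The transgene sits in the Col1a1 locus under a tetracycline operator and is switched on by the reverse transactivator rtTA3, driven by the broadly active CAGs promoter, when doxycycline (dox) is fed. The comparison asks how these genes differ in tissues of mice with A3B switched on.

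Set 2 covered liver and pancreas, each with 6 A3B and 2 control samples. By the study's description of its mice, the A3B animals carried A3B + CAGS-rtTA and were adults, 4 weeks old when dox food (625 ppm) began. Its methods name as controls littermates with A3B alone or with the driver alone, fed dox. The labels of control livers 45 and 168 name A3B alone. The labels and the study's list of mice give 10 days of dox for all set 2 animals, whereas a figure legend of the study describes its pair of sequenced control animals as without dox. The genotype label of A3B pancreases 44 and 137 names A3B alone, and that of control pancreases 45 and 168 names A3B + CAGS-rtTA, against their titles. Groups here follow the titles. Set 1 held livers from 3 A3B mice and 3 controls and lungs from 3 A3B mice and 3 controls. Its A3B mice carried A3B + CAGS-rtTA and had dox for 14 days (livers 23 and 28) or 10 days (liver 70 and lungs 69, 70 and 74). Its controls carried A3B alone, except liver 11, labelled A3B + CAGS-rtTA, and lung 87, labelled CAGs. The labels give these controls 15 days of dox, whereas the study's list of mice gives most of them none. A whole tissue is measured in every sample, so fewer cells of a type and less RNA per cell cannot be told apart.

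Secretory and membrane proteins enter the ER through the Sec61 channel, lose their signal peptide, receive sugars from oligosaccharyltransferase, and are folded by chaperones such as BiP (Hspa5) and by protein disulfide isomerases. Proteins that fail to fold are passed back to the cytosol and degraded by ERAD. When unfolded protein accumulates, the sensors IRE1 (Ern1), PERK (Eif2ak3) and ATF6 raise the folding capacity, in part through the factor XBP1. Pancreatic acinar cells, which make digestive enzymes, carry an unusually large ER, and hepatocytes secrete most plasma proteins.

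Libraries of set 2 held between 65161064 and 118976013 estimated counts. In the control pancreases 62.2% and 59.5% of counts fell on the top 10 genes, against 12.043% to 20.4% in A3B pancreases and 13.9% to 24.8% in livers. Scaling factors from TMM, a method that assumes most genes do not change, were 0.21 and 0.443 in the control pancreases and 1.3 to 1.79 in the A3B pancreases. The scale chosen therefore sets where 0 lies in the pancreas: over all genes tested, the log2 fold change had a median of 0.09 with TMM, 0.76 when digestive enzyme genes were left out of the totals, 1.75 on log2(TPM + 1) and 2.29 with total counts. TPM, a transcript's share of all transcripts, corrects for length and depth only. Marker genes fitted the labelled tissues: the 11 acinar markers summed to 68410 to 274600 TPM in the pancreases and to at most 555 TPM in the livers. In set 1 the 6 lung epithelial markers summed to 18230 to 20620 TPM in the lungs and to at most 47.6 TPM in the livers.

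In the pancreas, 6 of the 51 genes were lower in A3B mice on every scale tried: Pdia2, Derl3, Ssr4, Sec11c, Sec61g and Erp27. Each had an adjusted p under the threshold of 0.05 in the main test and in all 14 alternatives, with a largest adjusted p of 0.0405, for Erp27. The share of all genes lower in every setting was not counted. It can be no larger than the 1.1% of genes tested that passed as lower with total counts. With TMM, 28 of 51 passed as lower and 0 as higher, where 14.9% of all 19142 genes tested passed as lower and 17.0% as higher. Without control 45, 19 passed as lower, where 8.75% of genes did, and without control 168, 31, where 12.7% did. On log2(TPM + 1), 7 passed as lower and 37 as higher, where 1.12% and 83.9% of genes did. With digestive enzyme genes left out of the totals, 17 passed as lower and 8 as higher, where 5.8% and 32.3% of genes did. With total counts, 6 passed as lower and 38 as higher, where 1.1% and 70.4% of genes did, and DESeq2 called 32 lower, where 17.2% of genes were.

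Pdia2, a protein disulfide isomerase made mainly in the pancreas, showed the largest difference. Its level was 4540 and 3478 TPM in control pancreases 45 and 168, and the A3B pancreases had a lowest value of 95.8, a median of 203 and a highest of 420 TPM. The groups were far apart, and the TMM log2 fold change was -5.93 ± 0.48 (SE; adjusted p = 9.42e-05). Among the ER genes Pdia2 ranked 1st by TPM in the control pancreas, where it took 51.9% and 44.4% of their summed level, against 1.99% to 8.24% in the A3B pancreases. Without Pdia2 the other 50 genes summed to 4201 and 4354 TPM in the controls and to 4480 to 4934 TPM in the A3B pancreases. In the liver Pdia2 was near 0, at up to 1.15 TPM.

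Derl3, the secretory-cell member of the derlins that pass misfolded proteins to ERAD, stood at 35.2 and 37.6 TPM in the control pancreases. The A3B pancreases ranged from 1.94 to 6.94 TPM with a median of 3.22, and all 6 lay below both controls. The TMM log2 fold change was -5.71 ± 0.43 (adjusted p = 9.89e-05). Plasma cells also use Derl3, and the 8 B and plasma cell markers summed to 2.38 TPM in control 45 and 109.5 TPM in control 168, and to 71.6 to 184 TPM in the A3B pancreases. With TMM 6 of these 8 markers had a negative log2 fold change, the list median was -2.05 in a range of -3.5 to 3.59, 1 passed as higher and none as lower. Their part in the Derl3 result was not tested.

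Ssr4, the delta subunit of the translocon-associated protein complex, stood at 940 and 872 TPM in the controls and at 153 to 387 TPM, median 278, in the A3B pancreases. Its TMM log2 fold change was -4.16 ± 0.39 (adjusted p = 0.00015). Sec11c, a catalytic subunit of signal peptidase, stood at 355 and 366 TPM against 89.99 to 178 TPM, median 129, with a log2 fold change of -3.73 ± 0.33 (adjusted p = 0.000128). For both genes every A3B sample was below both controls.

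Sec61g, the gamma subunit of the Sec61 channel, stood at 67.0 and 57.8 TPM in the controls and at 13.8 to 41.4 TPM, median 34.1, in the A3B pancreases (TMM log2 fold change -3.48 ± 0.39, adjusted p = 0.000331). Erp27, a pancreas-rich redox-inactive relative of the disulfide isomerases, stood at 439 and 278 TPM in the controls and at 144 to 285 TPM, median 205, in the A3B pancreases. Its groups touched, since 5 of 6 A3B samples lay below both controls and pancreas 44 lay above control 168. Its log2 fold change was -3.28 ± 0.43 with TMM (adjusted p = 0.000519) and -0.77 on log2(TPM + 1).

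**Figure D1:**
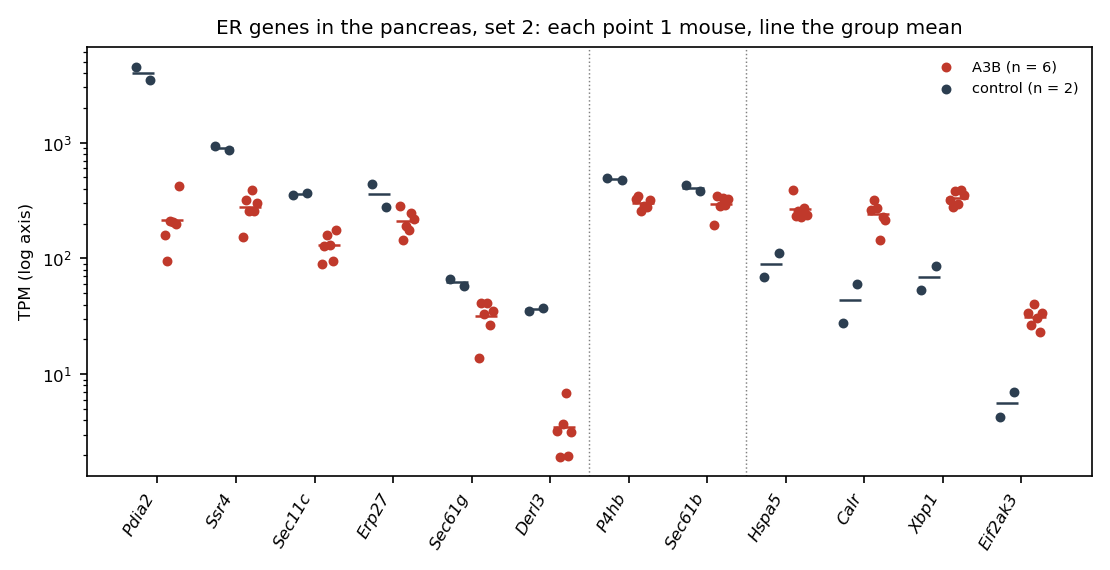
TPM of 12 ER genes in each pancreas on a log axis, with control mice (n = 2) in dark blue, A3B mice (n = 6) in red and lines at group means. The 6 genes left of the first dotted line were lower in A3B on every scale, P4hb and Sec61b were negative on every scale, and the 4 on the right were higher in TPM while their TMM log2 fold changes lay between -0.80 and 0.23.

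Ratios between related genes within a library do not depend on the scale, and they were compared after the values above were seen, with no test. Ssr4 to Ssr1, subunits of the same complex, stood at 267 and 141 in the control pancreases and at 5.04 to 20.7 in the A3B pancreases, while all livers lay between 4.04 and 11.6. Sec61b to Sec61a1, the beta subunit and the pore of the channel, stood at 23.1 and 16.3 in the controls and at 2.23 to 5.37 in A3B. Sec61g to Sec61a1 stood at 3.58 and 2.46 in the controls and at 0.158 to 0.643 in A3B. These channel ratios did not overlap between the pancreas groups.

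The ratio of Sec11c to Spcs2, both of signal peptidase, was 11.8 and 6.01 in the control pancreases and 1.003 to 2.49 in the A3B pancreases. The ratio of Derl3 to Derl2 was 4.69 and 3.06 against 0.0671 to 0.412. The ratio of Pdia2 to Pdia4 was 1380 and 424 against 2.62 to 14.7. In every pair the pancreas groups did not overlap, which followed largely from the choice of genes. Each first gene had every A3B pancreas below both controls in TPM, and each second gene except Spcs2 had every A3B pancreas above both. The first gene also had the shorter transcript in every pair, and other pairs of genes were not compared. In these pairs the A3B pancreases lay nearer to the livers than the control pancreases did. The 11 acinar markers summed to 258900 and 274600 TPM in the control pancreases and to 68410 to 181500 TPM in the A3B pancreases. Of these markers, 10 of 11 passed as lower with TMM, beside 14.9% of all genes. As higher passed 3 of 6 ductal, 4 of 5 macrophage and 4 of 5 fibroblast markers, beside 17.0%. Of the other lists, 2 of 7 endocrine markers passed as lower and 1 of 8 B and plasma cell markers as higher. No T cell, adipocyte, hepatocyte or lung epithelial marker passed. The endocrine sum was 3434 and 3509 TPM in the controls and 3758 to 13290 TPM in A3B. In TPM, 82.0% of all genes had every A3B pancreas above both controls. The ductal markers summed to 53.8 to 92.7 TPM in controls and 1194 to 2948 TPM in A3B, the macrophage markers to 3.47 to 13.5 and 226 to 484 TPM, and the fibroblast markers to 37.7 to 168 and 865 to 1347 TPM. The part of these cell markers in the ER results was not tested.

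**Figure D2:**
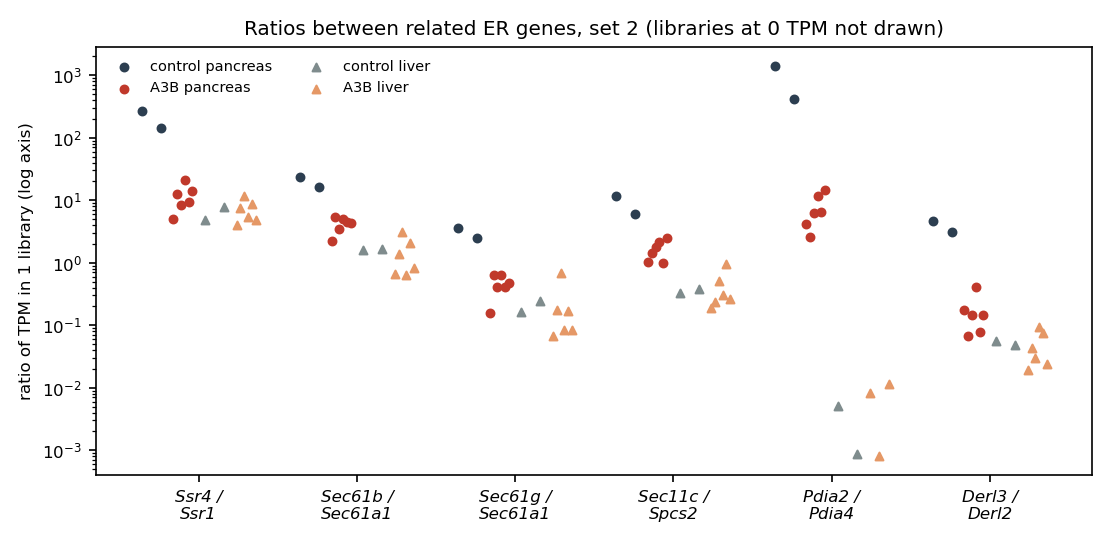
Ratio of TPM between 2 related ER genes within each library of set 2, on a log axis, for control and A3B pancreases (circles) and livers (triangles). In every pair the 6 A3B pancreases lie below the 2 control pancreases, for Ssr4 to Ssr1 at 5.04 to 20.7 against 141 and 267. The pairs were chosen after the values of the single genes were seen, and the separation follows largely from that choice.

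Of the 12 chaperones and co-chaperones, 6 passed as lower with TMM and 0 as higher (Sdf2l1, Dnajc3, Manf, Dnajb11, Creld2 and Hsp90b1), with a median log2 fold change of -0.80. Sdf2l1, a partner of BiP, was the lowest at -2.45 ± 0.27 (adjusted p = 0.000255), yet its TPM was 33.5 and 35.3 in the controls and 28.4 to 38.8, median 33.4, in A3B. That overlap in TPM shows how far the call rests on the scale. Hspa5 stood at 69.3 and 111 TPM in the controls and at 226 to 389 TPM, median 247, in the A3B pancreases. With TMM its log2 fold change was -0.80 ± 0.32 (adjusted p = 0.0778), and on log2(TPM + 1) it was 1.58, so that its direction differed between scales.

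Hsp90b1 (GRP94) was at 30.7 and 54.8 TPM in controls against 93.8 to 139 TPM in A3B, with -0.81 ± 0.25 for TMM (adjusted p = 0.032) and 1.44 on log2(TPM + 1). Dnajc3 (P58IPK), a co-chaperone that also restrains PERK, was at 20.1 and 22.1 TPM against 26.9 to 35.1 TPM, with -1.81 ± 0.28 (adjusted p = 0.0012) and 0.54. Manf, a secreted ER stress protein, was at 78.9 and 90.01 TPM against 130 to 172 TPM, with -1.61 ± 0.27 (adjusted p = 0.0019) and 0.74. In these genes the TMM change and the TPM change had opposite signs.

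Creld2, an ER stress-inducible disulfide isomerase-like gene, was at 10.0 and 15.6 TPM in controls and 25.2 to 41.6 TPM in A3B, with a TMM log2 fold change of -0.82 ± 0.25 (adjusted p = 0.0284). Hyou1, a nucleotide exchange factor for BiP, was at 7.06 and 14.5 TPM against 22.7 to 52.5 TPM, with -0.39 ± 0.32 (adjusted p = 0.374). Dnajb9 (ERdj4), at 3.37 and 8.14 TPM against 20.5 to 33.0 TPM, gave 0.09 ± 0.25 (adjusted p = 0.814). Calr, the calcium-binding lectin chaperone calreticulin, at 27.4 and 60.8 TPM against 144 to 317 TPM, gave 0.13 ± 0.30 (adjusted p = 0.773). Of the remaining members of this group, Dnajb11 passed as lower at -1.04 with TMM, while Canx (-0.14) and Dnajc10 (0.39) did not pass.

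Of the 11 genes of oxidative folding, 6 passed as lower with TMM: Pdia2, Erp27, Ppib, P4hb, Txndc11 and Erp44. P4hb, the abundant disulfide isomerase PDI, stood at 500 and 479 TPM in the controls and at 257 to 346 TPM, median 301, in A3B, with no overlap (TMM log2 fold change -2.50 ± 0.31, adjusted p = 0.00041). It was called lower in 4 of the 5 scalings and not with total counts (-0.15). Ppib, the ER cyclophilin B, stood at 438 and 519 TPM against 406 to 465 TPM, median 430, with -2.53 ± 0.27 (adjusted p = 0.000237) and -0.14 on log2(TPM + 1). The TPM of Ppib overlapped between the groups.

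The remaining disulfide isomerases and related genes were mixed. Pdia4, a large isomerase of the BiP complex, was at 3.29 and 8.21 TPM in controls and 17.5 to 38.6 TPM, median 32.7, in A3B, with a TMM log2 fold change of 0.33 ± 0.28 (adjusted p = 0.401). Txndc5 was at 6.996 and 11.6 TPM against 27.0 to 55.9 TPM, with -0.11 ± 0.24 (adjusted p = 0.746). Pdia3, Pdia5 and Pdia6 had TMM log2 fold changes of 0.40, 0.43 and 0.12, and none passed. Txndc11 (-1.57) and Erp44 (-1.01), which retains folding enzymes in the ER, passed as lower.

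All 9 ERAD genes had a negative TMM log2 fold change and 6 passed (Derl3, Herpud1, Derl2, Edem1, Edem2 and Derl1). Herpud1, which organises the ERAD complex, stood at 160 and 100 TPM in controls and at 93.2 to 178 TPM, median 97.5, in A3B, with -2.53 ± 0.42 (adjusted p = 0.00166) and -0.19 on log2(TPM + 1). Its groups overlapped in TPM. Edem1, a mannosidase-like lectin of ERAD, was at 25.9 and 40.9 TPM against 68.1 to 118 TPM, with -0.98 ± 0.26 (adjusted p = 0.0171) and 1.37 on log2(TPM + 1). Sel1l, the scaffold of the Hrd1 ligase, was at 47.4 and 61.6 TPM against 66.5 to 188 TPM, with -1.07 ± 0.40 (adjusted p = 0.0656). Edem3 (-0.20) and Syvn1, the Hrd1 ligase itself (-0.80), did not pass.

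Of the 15 genes of the translocon, signal peptidase and glycosylation, 10 passed as lower with TMM, with a group median of -1.28. Sec61b stood at 433 and 382 TPM in controls and at 195 to 346 TPM, median 307, in A3B without overlap (-2.94 ± 0.33, adjusted p = 0.000295). Spcs1, a signal peptidase subunit, was at 80.5 and 132 TPM against 106 to 171 TPM, with -2.02 ± 0.23 (adjusted p = 0.000292) and 0.30 on log2(TPM + 1). Tram1 (-1.85), Spcs2 (-1.57), Ssr3 (-1.28), Ssr2 (-0.77) and Ddost (-0.76) also passed. Stt3a, the catalytic subunit of oligosaccharyltransferase, was at 3.62 and 7.99 TPM against 18.9 to 47.4 TPM, with 0.36 ± 0.25 (adjusted p = 0.293). Sec61a1, Ssr1, Rpn1 and Rpn2 lay between -0.64 and 0.04 and did not pass.

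None of the 4 UPR genes passed with TMM, and all 4 were higher in TPM in 6 of 6 A3B pancreases, as were 82.0% of all genes. Xbp1 stood at 53.4 and 85.9 TPM in controls and at 277 to 387 TPM, median 337, in A3B, and ranked 2nd by TPM among the ER genes there. Its TMM log2 fold change was 0.18 ± 0.30 (adjusted p = 0.681). The deposited transcripts give no measure of the spliced, active form of Xbp1. Atf6 was at 1.55 and 3.64 TPM against 9.08 to 13.7 TPM (0.05 ± 0.23, adjusted p = 0.876), Ern1 at 1.69 and 3.51 against 7.59 to 16.8 TPM (-0.05 ± 0.27, adjusted p = 0.906), and Eif2ak3 at 4.26 and 7.06 against 23.0 to 40.4 TPM (0.23 ± 0.24, adjusted p = 0.482). With digestive enzymes left out of the totals, Xbp1 (0.92) and Eif2ak3 (0.97) passed as higher, with Dnajc10, Pdia3, Pdia4, Pdia5, Rpn1 and Stt3a.

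Separation of the samples in TPM followed the same split. In 7 of 51 genes every A3B pancreas lay below both controls (Pdia2, P4hb, Derl3, Sec61b, Sec61g, Ssr4 and Sec11c), where 1.15% of 13597 genes did. In 38 of 51 every A3B pancreas lay above both controls, where 82.0% of genes did. Of the 28 genes lower with TMM, 7 were also lower on log2(TPM + 1), 14 were called higher there and 7 passed in neither direction there.

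**Figure D3:**
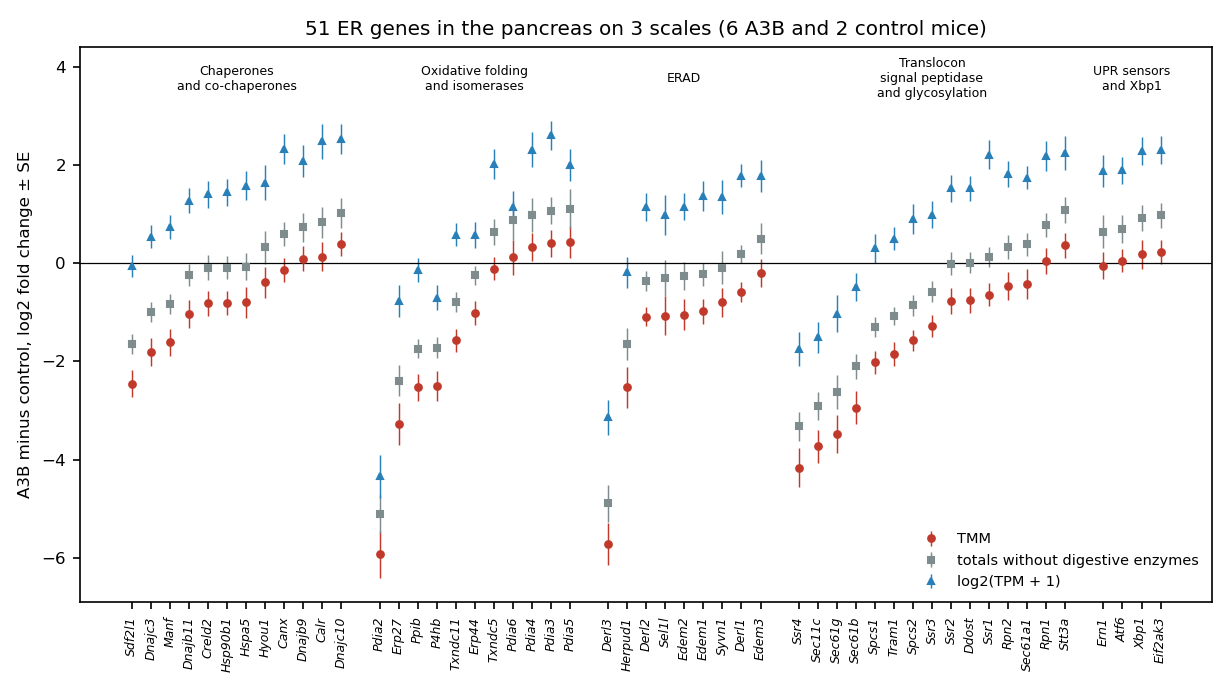
Log2 fold change ± SE (A3B minus control) of the 51 ER genes in the pancreas with TMM (red circles), with totals without digestive enzymes (grey squares) and on log2(TPM + 1) (blue triangles), by group of genes. The order of the genes within a group is similar on the 3 scales, the level of 0 is not, and Pdia2, Derl3, Ssr4, Sec11c, Sec61g and Erp27 lie below 0 on each.

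Lengths of transcripts moved with these values. Across the 51 genes the Spearman rho between mean transcript length and the TMM log2 fold change was 0.52, against 0.14 across all 19142 genes, a description since genes are not replicates. The 5 genes under 1000 bases (Sec61b, Spcs1, Sec61g, Ssr4 and Ppib) had a median of -2.94, the 30 of 1000 to under 3000 bases one of -1.03, and the 16 longer ones one of -0.29. Pdia2 and Derl3, at 1331 and 1147 bases, had lower log2 fold changes than any of the 5 shortest. Whether length has a part in these values was not tested.

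Among 70 further genes of the secretory pathway, 27 passed as lower and 9 as higher in the pancreas with TMM, beside 14.9% and 17.0% of all genes. The calls as lower rest on the scale here too. Of the 27, only Prdx4, Srp9, Selenos, Mcfd2, Ero1lb and Bhlha15 had a lower mean TPM in A3B. The others had a higher one, such as Sec13 at 35.0 TPM in controls and 76.0 TPM in A3B. The smallest p belonged to Prdx4, the ER peroxiredoxin, at 454 ± 52.0 TPM (SD, n = 2) in controls and 85.8 ± 12.1 TPM (n = 6) in A3B, a log2 fold change of -4.87 ± 0.33 (SE; adjusted p = 6.07e-05). Srp9, of the signal recognition particle, followed at -3.33 ± 0.29 and Selenos, an ERAD selenoprotein, at -2.73 ± 0.25. Creb3l3, a membrane-bound transcription factor of the liver, went the other way, from 0.0605 and 0.183 TPM in controls to 8.75 to 16.5 TPM in A3B (4.55 ± 0.33, adjusted p = 6.61e-05). By list, and with TMM only, 3 of 4 genes of oxidation and nucleotide exchange and 6 of 13 of signal recognition and translocon were lower. So were 6 of 14 of the glycosylation and lectin cycle and 9 of 21 of COPII export, where 2 were higher. Of the 6 further ERAD genes, 3 were higher (Nploc4 at 1.56, Vcp at 1.06 and Ufd1 at 0.61, the ATPase complex that extracts ERAD substrates) and Selenos was lower, with a list median of 0.51. Among the 12 UPR factors 4 were higher and 2 lower.

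In the liver of set 2, none of the 51 genes passed in either direction, where 3.66% of 17376 genes tested did, and 6 of 51 had an unadjusted p under 0.05, where 22.9% of genes did. DESeq2 called 1 higher and 3 lower, where 7.49% and 6.32% of genes were. The 6 hepatocyte markers summed to 84060 to 135900 TPM in the controls and 31250 to 72250 TPM in A3B, and none passed. The 4 adipocyte markers summed to 4.99 and 5.60 TPM in the controls and 17.8 to 178 TPM in A3B, and none passed. The part of both lists in the liver values was not tested. The member median was -0.07, beside 0.21 for all genes. The largest positive values were those of Dnajb9, Creld2, Manf and Hspa5, and the 12 chaperones and co-chaperones had a median of 0.12 with 7 positive. Dnajb9 stood at 12.1 and 16.6 TPM in the controls and at 28.6 to 65.0 TPM, median 39.8, in A3B (1.19 ± 0.37, adjusted p = 0.104). Creld2 stood at 18.6 and 16.9 TPM against 32.2 to 74.3 TPM, median 45.6 (1.13 ± 0.37, adjusted p = 0.116). In both genes all 6 A3B livers lay above both controls, and on log2(TPM + 1) both passed, with adjusted p of 0.0367 and 0.0418, where 4.46% of genes passed as higher.

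Manf stood at 76.5 and 67.0 TPM in control livers and at 110 to 286 TPM, median 127, in A3B (0.92 ± 0.42, adjusted p = 0.229). Hspa5 stood at 293 and 245 TPM against 293 to 861 TPM, median 603 (0.77 ± 0.37, adjusted p = 0.254), with the lowest A3B value, in liver 48, level with control 45. By TPM Hspa5 ranked 5th among the ER genes in the control livers and 1st in the A3B livers. These folds are of a size that the test did not separate from the spread between these mice. Hsp90b1 (-0.18 ± 0.34), Hyou1 (0.00 ± 0.37), Dnajc3 (0.13 ± 0.29), Calr (-0.51 ± 0.37) and Sdf2l1 (-0.12 ± 0.55) had adjusted p of 0.429 to 0.997.

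Rpn2, an oligosaccharyltransferase subunit, was the member nearest to a call as lower, at 133 and 99.2 TPM in controls and 33.2 to 79.9 TPM, median 70.2, in A3B without overlap (-1.22 ± 0.31, adjusted p = 0.0577). P4hb was at 765 and 560 TPM against 341 to 696 TPM (-1.07 ± 0.40, adjusted p = 0.157), and Derl2 at 60.5 and 52.3 TPM against 29.1 to 53.3 TPM (-0.73 ± 0.27, adjusted p = 0.142). Herpud1 was at 532 and 216 TPM against 146 to 418 TPM (-0.84 ± 0.40, adjusted p = 0.251). Rpn2, P4hb and Canx (-0.80) were the 3 that DESeq2 called lower, and Dnajb9 the 1 it called higher.

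Of the translocon and signal peptidase genes, Ssr4 was at 124 and 147 TPM in control livers and 93.1 to 475 TPM in A3B (0.17 ± 0.54), Sec11c at 28.4 and 29.8 against 28.5 to 73.4 TPM (0.26 ± 0.39) and Sec61b at 145 and 119 against 101 to 428 TPM (0.11 ± 0.56). For Ssr4, Sec11c, Sec61b and Sec61g the highest value was in liver 49, and for Sec61g that value, 91.5 TPM, was more than 3 times the next. Derl3 was at 3.34 and 2.49 TPM against 0.602 to 3.27 TPM (-1.37 ± 0.73, adjusted p = 0.29). The sensors and Xbp1 gave -0.31 ± 0.28 (Xbp1), -0.19 ± 0.26 (Atf6), -0.67 ± 0.34 (Ern1) and 0.26 ± 0.32 (Eif2ak3), with adjusted p of 0.266 to 0.705. In TPM, every A3B liver lay above both controls in 8 of the 50 members with a mean of at least 1 TPM (26.0% of genes) and below in 1 (6.19% of genes).

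Set 1 gave a further liver comparison with 3 mice a group and no mouse in common. Its TPM were computed per gene by another method and cannot be compared in level with set 2: Calr was listed at 17.9 to 18.1 TPM in its control livers and at 366 to 705 TPM in those of set 2. Of 51 genes, 48 had a mean of at least 1 TPM, and 0 passed, where 7.93% of 11507 genes did and 6 of the 48 had an unadjusted p under 0.05, where 32.6% of genes did. The 3 not tested were Pdia2, Erp27 and Derl3. The hepatocyte markers summed to 5685 to 6917 TPM in these controls and 2160 to 5332 TPM in A3B, and none of the 6 passed. Dnajb9, second by p in set 2, was the member with the smallest p here, at 55.5, 16.7 and 19.7 TPM in controls 11, 91 and 92 and at 80.5, 87.8 and 109 TPM in A3B livers 23, 28 and 70. Its log2 fold change on log2(TPM + 1) was 1.76 ± 0.47 (adjusted p = 0.0584), and every A3B liver was above every control.

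Hspa5 was at 1958, 1208 and 1529 TPM in the control livers of set 1 and at 3614, 3034 and 1895 TPM in the A3B livers (0.84 ± 0.36, adjusted p = 0.151), with liver 70 below control 11. Over all genes of this comparison the median was 0.39, and over the members 0.11. Dnajc10, a reductase of ERAD, was at 322, 343 and 246 TPM against 596, 801 and 514 TPM (1.05 ± 0.31, adjusted p = 0.0715). Atf6 was at 129, 51.2 and 65.1 TPM against 189, 159 and 172 TPM (1.18 ± 0.39, adjusted p = 0.0917). Of these 3 genes, Dnajc10 and Atf6 did not overlap between the groups. Rescaling the TPM by TMM moved the medians to 0.02 and -0.31, and gave 1.35 for Dnajb9, 0.42 for Hspa5, 0.63 for Dnajc10, 0.76 for Atf6 and 0.15 for Manf, while Hyou1 went from 0.36 to -0.06 and Xbp1 from 0.12 to -0.30.

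Control liver 11, the one labelled with the driver, stood near the A3B livers in several of these genes: Edem3 was at 18.99 TPM there against 3.746 and 4.07 in controls 91 and 92 and 17.2 to 23.2 in A3B, and Ern1 was at 25.6 TPM against 3.22 and 3.73 in these and 9.93 to 18.4 in A3B. Without control 11, 5 of 48 genes passed as higher, where 11.8% of 11513 genes did: Dnajb9 (2.28), Edem3 (2.06), Ern1 (1.60), Atf6 (1.56) and Eif2ak3 (1.14). The part of its genotype in these values was not tested. Creld2 (0.89), Manf (0.56) and Sdf2l1 (-0.10) had their lowest A3B value in liver 70, given dox for 10 days. In liver 70 they were at 59.1, 23.4 and 2.81 TPM, each below every control.

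Across both sets, with set 1 TPM as deposited, 32 of the 48 members tested in each had the same sign in the liver (66.7%), beside 77.3% of 10886 genes. In set 1 every A3B liver lay above every control in 6 of 48 members (28.5% of genes) and below in 6 (10.3% of genes). Derl2, at -0.73 and -0.97, and Rpn2, at -1.22 and -0.59, did not overlap in set 1, and Derl2 overlapped in set 2 through liver 49. Among the 70 further pathway genes, Bhlha15 passed as higher in both livers and, with TMM, as lower in the pancreas (-3.21 ± 0.57, adjusted p = 0.00333). There it was at 31.5 and 24.3 TPM in controls 45 and 168 and at 6.22 to 31.2 TPM in A3B. The difference between pancreas and liver was -7.15 ± 1.2 (adjusted p = 0.00343). Bhlha15 (MIST1) is a transcription factor of secretory cells, abundant in acinar cells. In the livers it was at 0.0706 and 0.149 TPM in the controls of set 2 and at 0.623 to 6.18 TPM in A3B (4.13 ± 0.95, adjusted p = 0.0453), and at 0.743 ± 0.833 TPM (SD, n = 3) against 19.1 ± 8.73 TPM in set 1 (3.52 ± 0.50, adjusted p = 0.0192). The acinar markers summed to 278 and 555 TPM in A3B livers 44 and 153, where Bhlha15 was at 3.801 and 1.03 TPM, and to 0.394 TPM in liver 49, where Bhlha15 was at 6.18 TPM. Their part in the Bhlha15 result was not tested.

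Ero1l, the oxidase that recharges PDI, was at 10.8 ± 0.00154 TPM in the controls of set 2 and 26.6 ± 8.21 TPM in A3B (1.04 ± 0.26, adjusted p = 0.0568), and passed in set 1 (2.19 ± 0.37, adjusted p = 0.0245). Sec24b, of the COPII coat, passed in set 1 at 1.53 ± 0.37. In all, 1 of 70 passed as higher in set 2 and 3 of 68 in set 1, beside 1.25% and 6.07% of all genes, and none passed as lower.

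**Figure D4:**
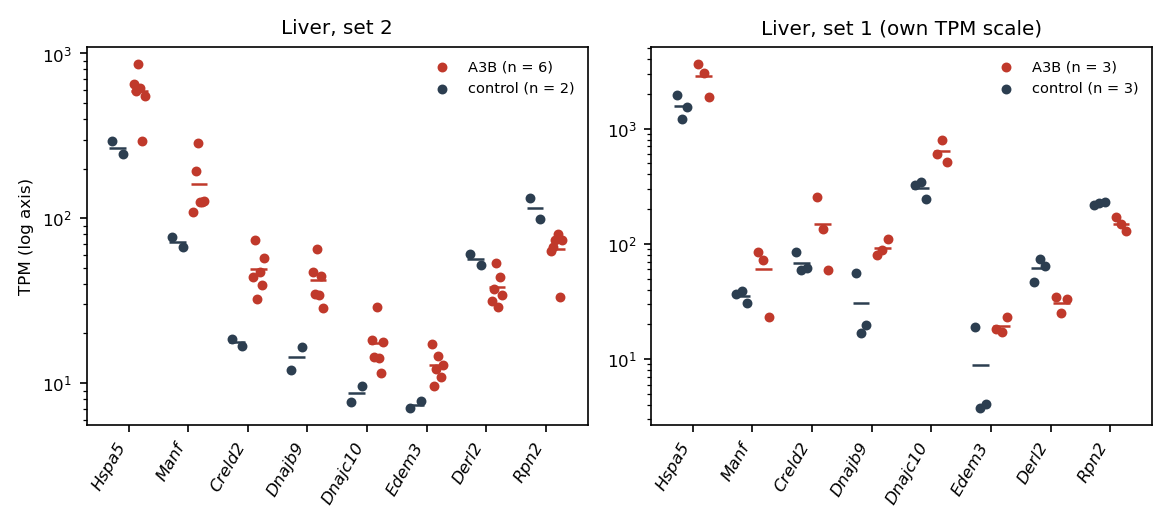
TPM of 8 ER genes in each liver on log axes, controls in dark blue and A3B in red, with lines at group means, for set 2 (n = 2 and 6) and set 1 (n = 3 and 3), which have separate TPM scales. Dnajb9 and Dnajc10, higher in A3B, and Rpn2, lower in A3B, do not overlap between the groups in either set. Control liver 11 lies near the A3B livers for Edem3 at 18.99 TPM.

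Several of the chaperone genes discussed carry a motif that links them to the UPR, and their sequences are shown for that reason. The ER stress response element (ERSE) is read by ATF6 and XBP1 with NF-Y and is written CCAAT, then any 9 bases, then CCACG. It was searched on both strands in the window of 250 bases before to 50 after each RefSeq start (GRCm38.p6). A promoter was matched for 42 of the 51 genes, and none for Erp27, Manf, Sec61a1, Tram1, Atf6, Ssr2, Sec11c, Derl1 and Hyou1. The motif was in 9 of the 42 (21.4%), against 0.137% of 27025 symbols. The 9 are 6 chaperones (Hspa5, Hsp90b1, Calr, Canx, Dnajc3 and Creld2), Pdia6, and Syvn1 and Derl3 of ERAD. The element with 10 bases on either side is given 5′ to 3′ on the strand of the gene, with the CCAAT and CCACG letters, or their reverse complement, in capitals.
Hspa5: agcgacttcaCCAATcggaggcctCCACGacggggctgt
Hsp90b1, distal: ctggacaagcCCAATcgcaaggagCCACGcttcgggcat
Hsp90b1, proximal: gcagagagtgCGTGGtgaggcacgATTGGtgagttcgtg
Creld2: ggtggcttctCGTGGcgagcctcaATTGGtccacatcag
Dnajc3: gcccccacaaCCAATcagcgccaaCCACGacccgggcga
Calr: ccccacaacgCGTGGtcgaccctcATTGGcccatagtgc
Canx: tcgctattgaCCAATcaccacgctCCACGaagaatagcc
Pdia6: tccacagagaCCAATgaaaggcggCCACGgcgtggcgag
Syvn1: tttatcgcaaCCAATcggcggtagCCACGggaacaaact
Derl3: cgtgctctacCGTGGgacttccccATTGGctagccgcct

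The window of Hspa5 lies on the plus strand at chr2:34771840-34772139 and its element runs from 65 to 47 bases before the start. That of Derl3 lies on the plus strand at chr10:75893148-75893447 with the element on the opposite strand, 156 to 138 bases before the start. The 2 elements of Hsp90b1, on the minus strand at chr10:86705395-86705694, run from 212 to 194 and from 107 to 89 bases before the start. The gene with the second lowest TMM value in the pancreas, Derl3 (-5.71), and Calr, the highest of these 9 there (0.13), thus both hold the element. The 9 genes had a median log2 fold change of -0.80 in the pancreas and -0.18 in the liver of set 2, beside -1.01 and -0.09 for the 33 matched genes without it. In set 1, for the 8 tested, the medians were 0.10 in the liver and -0.12 in the lung, beside 0.08 and -0.24. The UPR element core TGACGTGG was in 2 of 42 members, Txndc5 and Txndc11, against 0.714% of symbols. A match is a description of letters only.

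The change with A3B was compared between pancreas and liver of set 2 by an interaction term. It passed for 13 of 51 genes, all lower in the pancreas, where 5.02% of 19927 genes passed as lower. With TMM the differences were largest for Derl3 (-4.18 ± 0.94), Ssr4 (-4.16 ± 0.77), Sec11c (-3.83 ± 0.57) and Sec61g (-3.71 ± 1.08). Sec61b (-2.89), Manf (-2.36), Ppib (-2.35), Sdf2l1 (-2.16), Creld2 (-1.78), Dnajc3 (-1.76), Txndc11 (-1.76), Spcs2 (-1.75) and Tram1 (-1.49) made up the rest. Since 7 mice gave both tissues, the test was also fitted with the animal as a replicate block, and then 7 passed (Sec11c, Spcs2, Ssr4, Derl3, Ppib, Txndc11 and Manf), where 2.44% of genes did. The count depended on the controls, since without mouse 45 none passed and without mouse 168 6 did, where 0.162% and 0.851% of genes did. On log2(TPM + 1), Spcs2 (0.34), Tram1 (0.21), Dnajc3 (0.06) and Creld2 (0.03) of these 13 had a positive difference, and with total counts Tram1 (0.20) did. With total counts 26 of the 51 genes passed as higher in the pancreas and 3 as lower, where 39.4% and 1.12% of genes did. On log2(TPM + 1) 23 and 4 did, where 56.6% and 1.03% of genes did. Derl3, Ssr4 and Sec11c passed as lower on each of these scales and with the replicate block. Pdia2, near 0 in the liver, gave -6.33 ± 2.28 (adjusted p = 0.081), Erp27 -3.63 ± 1.42 (adjusted p = 0.106) and P4hb, also negative in the liver, -1.26 ± 0.58 (adjusted p = 0.166). Hspa5 gave -1.39 and did not pass, with 0.77 in the liver and -0.80 in the pancreas.

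In the lung of set 1, 15 of the 48 genes tested fell and 6 rose, where 20.8% of 13651 genes fell and 16.1% rose. Without A3B lung 69, 8 fell and 4 rose, beside 11.3% and 10.6% of genes. With the TPM rescaled by TMM, 14 fell and 8 rose, beside 16.5% and 19.7% of genes. The genes that rose belonged to the sensors, ERAD and oxidative folding, and those that fell to the chaperones, isomerases, translocon and, for Derl2, ERAD. The member median was -0.20, beside -0.06 for all genes. All values are TPM per gene and changes are on log2(TPM + 1). Of the 4 UPR genes, 3 rose. Ern1, which encodes IRE1, was at 7.47, 7.84 and 6.06 TPM in control lungs 87, 88 and 91 and at 21.8, 19.2 and 20.96 TPM in A3B lungs 69, 70 and 74 (1.42 ± 0.12, adjusted p = 0.00176). It was the member with the smallest p, and the groups were well apart.

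Atf6 was at 108, 117 and 82.7 TPM in control lungs against 150, 155 and 150 TPM in A3B (0.57 ± 0.14, adjusted p = 0.02). Eif2ak3 was at 16.5, 17.3 and 14.0 TPM against 21.8, 21.9 and 20.9 TPM (0.42 ± 0.10, adjusted p = 0.0217). Xbp1 was at 500, 530 and 444 TPM against 474, 474 and 448 TPM (-0.07 ± 0.10, adjusted p = 0.585), with the groups overlapping. In ERAD, Edem3, a mannosidase-like gene, rose from 17.9, 17.4 and 13.2 to 31.9, 31.2 and 31.7 TPM (0.94 ± 0.13, adjusted p = 0.00475). Herpud1 rose from 60.4, 42.5 and 41.8 to 88.2, 87.6 and 73.7 TPM (0.79 ± 0.16, adjusted p = 0.0128). Derl2 fell by 0.42, while Edem1 (0.36 ± 0.12, adjusted p = 0.0528) and Sel1l (0.45 ± 0.15, adjusted p = 0.0568) missed the threshold and passed with the TPM rescaled by TMM (0.44, adjusted p = 0.0205, and 0.52, adjusted p = 0.029). Txndc11 rose by 0.76.

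Of the chaperones, 4 of 12 fell and none rose. Sdf2l1 fell from 8.65, 11.6 and 9.06 to 3.71, 4.51 and 4.37 TPM (-1.04 ± 0.13, adjusted p = 0.00417), and Manf from 26.0, 23.3 and 23.5 to 15.9, 16.3 and 16.9 TPM (-0.54 ± 0.09, adjusted p = 0.00674). Calr (-0.49 ± 0.14, adjusted p = 0.0318) and Dnajb11 (-0.27) also fell, the call of Dnajb11 ending with the TPM rescaled by TMM (-0.19, adjusted p = 0.124). Hspa5 was at 952, 1185 and 759 TPM in controls and 922, 998 and 927 TPM in A3B (0.00 ± 0.17, adjusted p = 0.995), with overlapping groups, and Hyou1 gave 0.05 ± 0.16. Hsp90b1 (-0.36), Dnajb9 (0.43), Dnajc3 (0.31) and Creld2 (-0.18) did not pass. Among the isomerases Pdia6 (-0.69) and Ppib (-0.40 ± 0.09, adjusted p = 0.0139) fell, while Pdia4 (-0.48), P4hb (-0.20) and Txndc5 (-0.26) did not pass.

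Of the 15 translocon, signal peptidase and glycosylation genes, 8 fell and none rose. Sec61b fell from 95.6, 78.2 and 112 to 48.4, 47.9 and 53.2 TPM (-0.91 ± 0.14, adjusted p = 0.00611) and Spcs1 from 40.6, 34.4 and 37.5 to 22.6, 22.0 and 25.0 TPM (-0.67 ± 0.10, adjusted p = 0.00583). Sec61g (-0.99; adjusted p = 0.0521 with no filter on low values), Sec11c (-0.71 ± 0.15, adjusted p = 0.0139), Ssr4 (-0.54 ± 0.11, adjusted p = 0.0125), Ssr2 (-0.50), Ddost (-0.49) and Spcs2 (-0.43) fell as well. Stt3a gave 0.00 ± 0.17 and Sec61a1 0.16 ± 0.15. Every A3B lung lay below every control in 23 of 48 members, where 30.6% of genes did, and above in 10, where 23.3% did.

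In the lung the change followed transcript length more closely than in the other tissues. Across the 48 genes the Spearman rho between length and log2 fold change was 0.79, against 0.44 across 12933 genes. In the liver it was 0.41 for the members and 0.28 for all genes in set 1, and -0.10 and -0.06 in set 2. The 5 lung members under 1000 bases had a median of -0.67, the 27 of 1000 to under 3000 bases one of -0.27 and the 16 longer ones one of 0.14. Over all genes in the lung the median was -0.46 under 1000 bases and -0.02 above. Lengths were taken from the transcripts used in set 2, and the part of length in the lung result was not tested. The surfactant and other lung epithelial markers summed to 19270 to 20620 TPM in controls and 18230 to 19810 TPM in A3B, and 1 of 6 passed as lower. The 4 adipocyte markers summed to 47.3 to 107 TPM in controls and 112 to 473 TPM in A3B. The B and plasma cell markers summed to 88.8 to 335 and 64.6 to 134 TPM. All 4 adipocyte and all 6 hepatocyte markers were positive, and none passed. Of 5 macrophage and 5 fibroblast markers, 1 of each passed as higher. The part of these markers in the lung values was not tested.

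**Figure D5:**
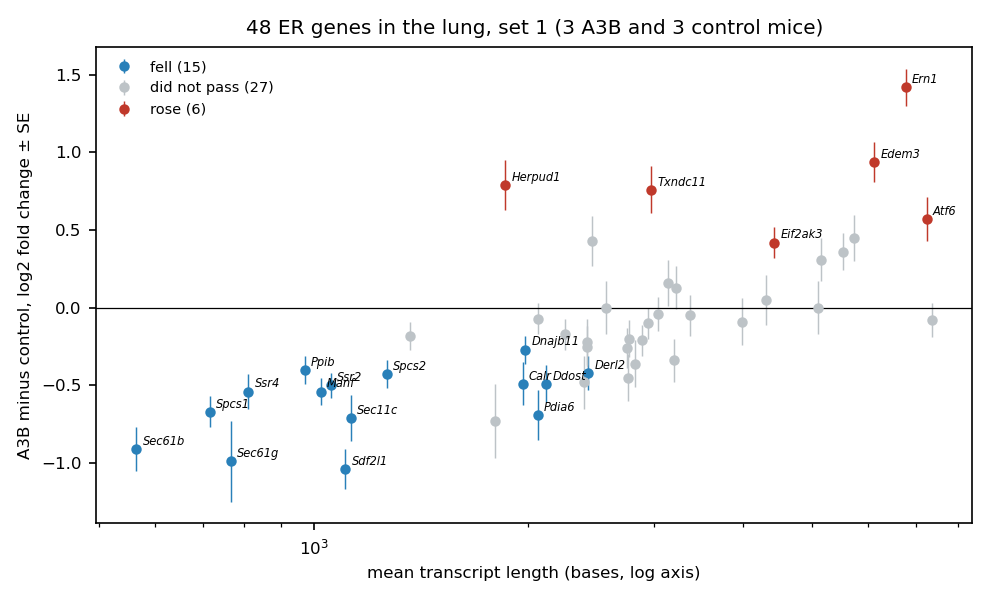
Log2 fold change ± SE on log2(TPM + 1) of 48 ER genes in the lung against mean transcript length in bases (log axis), with genes that fell in blue, that rose in red and that did not pass in grey. Genes that fell have short to middle lengths, and Ern1 (1.42), Edem3 (0.94) and Atf6 (0.57) lie at the long end.

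Among the 70 further pathway genes, 13 fell and 8 rose in the lung, shares below the 20.8% and 16.1% of all genes. Krtcap2 (-0.75 ± 0.09) and Ostc (-0.99 ± 0.15), both of oligosaccharyltransferase, and Prdx4 (-0.69 ± 0.10) fell, and Sec24a of the COPII coat rose (0.75 ± 0.09). The difference of the A3B effect between liver and lung in set 1 passed for 1 of 48 members, Dnajc10, which was higher in the liver by 1.15 ± 0.31 (adjusted p = 0.0404), where 8.81% of 13477 genes passed as higher. Its own changes were 1.05 in the liver and -0.09 in the lung. With the replicate block for the 2 mice that gave both tissues, Dnajc10 (0.95) and Dnajb9 (1.5) passed, where 16% of genes did. Leaving out 1 mouse gave between 0 and 6 genes, counts for which no share of all genes is given.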

How the data were processed

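The 51 genes and the gene lists were chosen with earlier results of these data known. Set 2 holds estimated counts and TPM per transcript, made by the authors with kallisto (mm10, GRCm38) from stranded libraries. The strand setting is not given in the sources used here, and 17 of the genes share exon bases with another gene. Transcripts were summed to genes through GENCODE, matching 97.751% of 119414, and the deposited estimated counts were rounded. Set 1 holds TPM per gene as computed by the authors, and its depth is unknown.

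Set 2 was tested with edgeR 4.0.16 (quasi-likelihood, robust, TMM) and set 1 with limma 3.58.1 on log2(TPM + 1), where the mean TPM reached 1. R 4.3.3 and Python 3.11.15 were used. Adjusted p-values are Benjamini-Hochberg over all genes tested, at 0.05. The test was tried on simulated data with 200 changed genes. Nothing states that replicates came from separate litters, and p-values measure the spread between these mice. Genes named one by one were those listed by role, plus up to 5 with the smallest p in each comparison and up to 4 further pathway genes. Alternatives were DESeq2 1.42.0, other scalings (for set 1, TPM rescaled by TMM), TPM, no filter, a pseudocount of 0.1 and leaving out each mouse.

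The same animal gave liver and pancreas in 7 mice of set 2, and 2 mice of set 1 gave liver and lung. The correlation of liver and pancreas deviations from the group means, over 16748 genes, ranged from -0.025 (mouse 49) to 0.292 (mouse 125). The pairing comes from the mouse numbers in the labels.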

Additional observations from a re-analysis of the deposited data

Results flagged for a closer look

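In groups of 6, single samples stood apart from the others in 5 of 56 sets of values tested, where chance gives about 1 in 20. Liver 48 of the A3B mice had the lowest Txndc5, at 59.3 TPM against 90.5 to 107.9 TPM, and the lowest Stt3a, at 19.6 TPM against 56.9 to 79.2 TPM. Pancreas 44 of the A3B mice had the highest Hspa5, at 389.0 TPM against 225.7 to 273.7 TPM, and the lowest Sec61b, at 195.2 TPM against 285.3 to 345.8 TPM. Pancreas 137 had the highest Manf, at 171.5 TPM against 129.8 to 143.4 TPM.

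The A3B effect differed between pancreas and liver, by the interaction in edgeR with TMM, for 13 genes, where 5.02% of all genes passed as lower. With the replicate block 7 of the 13 passed, without mouse 45 none did, and on log2(TPM + 1) Spcs2, Tram1, Dnajc3 and Creld2 had positive values. The differences in log2 fold change, pancreas minus liver, were -3.83 for Sec11c, -4.16 for Ssr4, -1.75 for Spcs2, -1.76 for Txndc11, -2.35 for Ppib, -2.36 for Manf and -4.18 for Derl3. They were -1.76 for Dnajc3, -2.89 for Sec61b, -1.78 for Creld2, -1.49 for Tram1, -3.71 for Sec61g and -2.16 for Sdf2l1. Between liver and lung, by limma, the difference passed for Dnajc10, at 1.15.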

How the results depend on the processing

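In the pancreas, total counts gave 38 higher and 6 lower, log2(TPM + 1) 37 and 7, and totals without digestive enzymes 8 and 17. Leaving out a mouse gave 19 (without control 45) to 31 (without control 168) lower, beside 8.75% and 12.7% of genes, and 0 higher. On log2(TPM + 1) 28 of the 51 genes changed sign. Among the genes followed in each setting, the values with total counts and on log2(TPM + 1) that turned positive were Hspa5 1.47 and 1.58, Hsp90b1 1.45 and 1.44, Hyou1 1.85 and 1.64, Dnajc3 0.56 and 0.54, Creld2 1.45 and 1.40, Manf 0.74 and 0.74, Txndc5 2.18 and 2.02, Edem1 1.32 and 1.37, Sel1l 1.25 and 0.98, Spcs1 0.26 and 0.30, and Ern1 2.17 and 1.87. In the liver of set 2, DESeq2 gave 1 higher and 3 lower, beside 7.49% and 6.32% of genes, and log2(TPM + 1) 2 higher, beside 4.46%. Total counts gave 1 higher there, and leaving out a mouse 0 to 2 lower (2 without A3B 48). In the liver of set 1, leaving out a mouse gave 0 to 5 higher (5 without control 11, beside 11.8% of genes). In the lung it gave 8 to 14 lower (8 without A3B 69, beside 11.3%) and 4 to 8 higher (4 without A3B 69, beside 10.6%). Where no share of all genes is given here or above, a count is not read as a result about these genes. The cause of these shifts was not tested. Control pancreases number 2, which limits every pancreas value.

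For pancreas against liver, the replicate block gave 7 lower, total counts 26 higher and 3 lower, log2(TPM + 1) 23 and 4, and leaving out a mouse 0 (without 45) to 13 lower. Values that turned positive included Hsp90b1 1.20, Hyou1 1.42, Edem1 1.26 and Tram1 0.20 with total counts, and Hsp90b1 1.26, Dnajc3 0.06, Creld2 0.03, Spcs2 0.34 and Tram1 0.21 on log2(TPM + 1). For liver against lung, the replicate block gave 2 higher, TPM rescaled by TMM 0, and leaving out a mouse 0 to 6 higher (6 without 11) and 0 to 1 lower (1 without 70).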
